A study of Mus musculus with 18 samples.

Results

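The B-lineage genes Pax5, Ebf1, Ms4a1, Cd22, Cd79a, Cd79b and Blnk were followed through the spleens of mice bearing T-cell leukemia of the acute lymphoblastic kind (T-ALL), with and without deletion of Acly. They were taken by symbol as 7 of the 19509 genes listed in either of the 2 tables of gene values, and all 7 were listed in both. The choice by symbol set no threshold on a measured value, but it was made with earlier results of these data known. A gene was tested where its mean over the libraries of a table was at least 10, which left 6 of the 7 in the acute table, without Cd79b, and 5 of the 7 in the survival table, without Cd79a and Cd79b.

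The 18 libraries came from spleens of C57BL/6 mice that had been sublethally irradiated and injected with T-ALL cells carrying a conditional allele of Acly. Acute mice were treated once they were overtly leukemic and sampled 48 h later, as KO acute (Acly deleted with tamoxifen at 3 mg per mouse, n = 4) and WT acute (corn oil alone, n = 4). Survival mice were treated 48 h after transplant and sampled at the humane endpoint, as KO first wave (tamoxifen, n = 3), KO second wave (tamoxifen, n = 3) and WT survival (corn oil alone, n = 4). The controls carried the same undeleted conditional allele, so KO and WT libraries differed in tamoxifen as well as in Acly, and these cannot be told apart. The allele was in the injected leukemia cells, and the spleens also held cells of the irradiated hosts. What the waves are, which Cre was used, the ages of the mice, and whether a group's libraries stem from separate mice or from 1 primary leukemia are not in the labels. The p-values therefore measure only the spread between samples, which may be technical.

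B cells start their programme under the transcription factors EBF1 and PAX5, of which PAX5 holds the B-cell fate and represses genes of other lineages. Mature B cells in the spleen carry CD20, encoded by Ms4a1, and the inhibitory lectin CD22, which binds sialic acid. CD79A and CD79B are the signalling chains that sit beside surface immunoglobulin in the B-cell receptor, and BLNK is the adaptor that links the kinase SYK to downstream enzymes. T-ALL arises from T-cell precursors, which share RAG recombinases and terminal transferase with B-cell precursors.

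On GRCm38, in the GENCODE M21 annotation, Pax5 lies on chromosome 4 from 44524757 to 44710487 (minus strand), Ebf1 on chromosome 11 from 44617317 to 45008091 (plus), Ms4a1 on chromosome 19 from 11249675 to 11266241 (minus) and Cd22 on chromosome 7 from 30865402 to 30880342 (minus). Cd79a lies on chromosome 7 from 24897381 to 24902197 (plus), Cd79b on chromosome 11 from 106311341 to 106314762 (minus) and Blnk on chromosome 19 from 40928927 to 40994535 (minus). Antisense or unclassified genes overlap Pax5, Ebf1, Ms4a1 and Cd22 on the opposite strand, and none of them is listed in the tables. The libraries kept strand, but as to how kallisto was set for strand, this was not given in the sources used here. Reads of such a partner thus cannot be told apart from those of the gene.

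Promoter windows from RefSeq (GRCm38.p6, 250 bases before to 50 after each start) matched 5 of the 7 genes, with 2 windows for Ebf1. They were searched on both strands for an Ets core (GGAAGT), an EBF core (CCCNNGGG) and the octamer (ATGCAAAT), and no matches overlapped. The first was in 23.8% of all 32851 windows, the second in 13.7% and the third in 1.74%. Of the 6 windows of these genes, 3 held an Ets core, 1 an EBF core and 1 the octamer. The RefSeq starts differ from the ends of the GENCODE genes given above. Pax5 is shown as the gene whose level fell in the second wave, and the other windows as the ones of a surface gene, a receptor chain and the adaptor that held a match. Capitals mark each match, and all are printed 5′ to 3′ on the strand of the gene.
Pax5 (chr4:44710645-44710944, minus strand, no match): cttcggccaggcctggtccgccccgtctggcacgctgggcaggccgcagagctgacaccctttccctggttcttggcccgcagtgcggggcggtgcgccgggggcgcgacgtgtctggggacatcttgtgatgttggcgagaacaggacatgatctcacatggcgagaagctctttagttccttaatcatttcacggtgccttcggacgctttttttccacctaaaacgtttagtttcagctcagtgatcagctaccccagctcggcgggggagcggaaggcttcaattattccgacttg
Cd22 (chr7:30878979-30879278, minus strand, EBF core): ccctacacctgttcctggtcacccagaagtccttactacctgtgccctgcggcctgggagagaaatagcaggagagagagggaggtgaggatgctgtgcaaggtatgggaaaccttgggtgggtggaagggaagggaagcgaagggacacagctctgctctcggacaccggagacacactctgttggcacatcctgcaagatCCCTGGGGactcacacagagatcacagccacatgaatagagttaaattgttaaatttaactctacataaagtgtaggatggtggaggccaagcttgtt
Cd79a (chr7:24897247-24897546, plus strand, Ets core): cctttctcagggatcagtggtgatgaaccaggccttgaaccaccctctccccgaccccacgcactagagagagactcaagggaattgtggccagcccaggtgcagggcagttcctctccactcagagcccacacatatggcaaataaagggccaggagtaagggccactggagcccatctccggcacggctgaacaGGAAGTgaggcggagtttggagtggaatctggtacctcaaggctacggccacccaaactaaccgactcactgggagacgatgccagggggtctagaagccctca
Blnk (chr19:40994172-40994471, minus strand, Ets core in both orientations and the octamer in reverse): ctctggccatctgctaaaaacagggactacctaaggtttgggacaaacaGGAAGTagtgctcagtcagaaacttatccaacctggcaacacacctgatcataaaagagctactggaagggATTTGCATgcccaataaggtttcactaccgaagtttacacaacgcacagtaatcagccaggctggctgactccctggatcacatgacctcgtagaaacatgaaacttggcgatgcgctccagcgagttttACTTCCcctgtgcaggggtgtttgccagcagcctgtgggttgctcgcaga
The lack of a match in the Pax5 window says only that these letters are not in it.

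Values are DESeq-normalized counts, with 7.07 to 10.4 M in all and an estimated 6.09 to 12.7 M reads in each library. Acly itself averaged 733 ± 85.1 in KO acute libraries and 1256 ± 122 in WT acute libraries (SD, n = 4 each), and 727 ± 71.8 in first-wave and 576 ± 75.3 in second-wave libraries (SD, n = 3 each) against 1697 ± 154 (SD, n = 4) in WT survival libraries, with no overlap between KO and WT and limma adjusted p-values of 0.00266 in acute, 0.0562 in first-wave and 0.00155 in second-wave libraries. The labelled tissue was checked on markers: 17 T-ALL and T-lineage genes made up 0.753% to 1.14% of the counts of each library, while the 7 B-lineage genes together made up 11.4 to 126 of every 1000000. In a principal component analysis, WT survival replicates 1 and 2 (-78.6 and -67.2 on the first component) stood apart from WT survival replicates 3 and 4 (18.8 and -4.16), KO second wave replicate 1 stood at 73.2, and in the acute table KO acute replicate 2 (-67.1) was the farthest out.

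In the second wave, Pax5 fell to 2.45% of the mean of WT survival libraries, and it was the single B-lineage gene of the 5 tested that passed the threshold (adjusted p under 0.05). Of all 14286 genes tested in that comparison 0.224% passed, and 0.175% passed in the lower direction. An unadjusted p under 0.05 was found for 3 of the 5 genes and 13% of all genes. All 5 genes had a negative log2 fold change, from -4.81 for Pax5 to -0.50 for Blnk with a median of -1.49, against 50.9% negative and a median of -0.01 among all genes. In the first wave 0 of the 5 passed and 1, Pax5, had an unadjusted p under 0.05, where 0% of all genes passed with limma and 8.02% had an unadjusted p under 0.05. In the acute spleens 0 of 6 passed, 1 (Blnk) had an unadjusted p under 0.05, and 12.6% of 14184 genes passed. All 6 had a positive log2 fold change there, also with quantile normalization or equal library totals. Their median was 0.82, against 52.4% positive and a median of 0.03 among all genes. This count leans on the filter and on single libraries. Cd79a cleared the filter on the mean through its KO acute libraries, which averaged 12.3 against 9.24 in WT acute. Cd79b, which the filter left out, was positive as well (0.32) in a fit without it. Ms4a1 was at 0.06 and turned negative in 4 of 8 fits with 1 library left out. The 2 wave comparisons share their WT libraries. As these are bulk libraries, the cells that gave the reads are not known. Fewer B cells, less of a transcript in each B cell and a change in leukemia or other cells cannot be told apart.

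**Figure D1:**
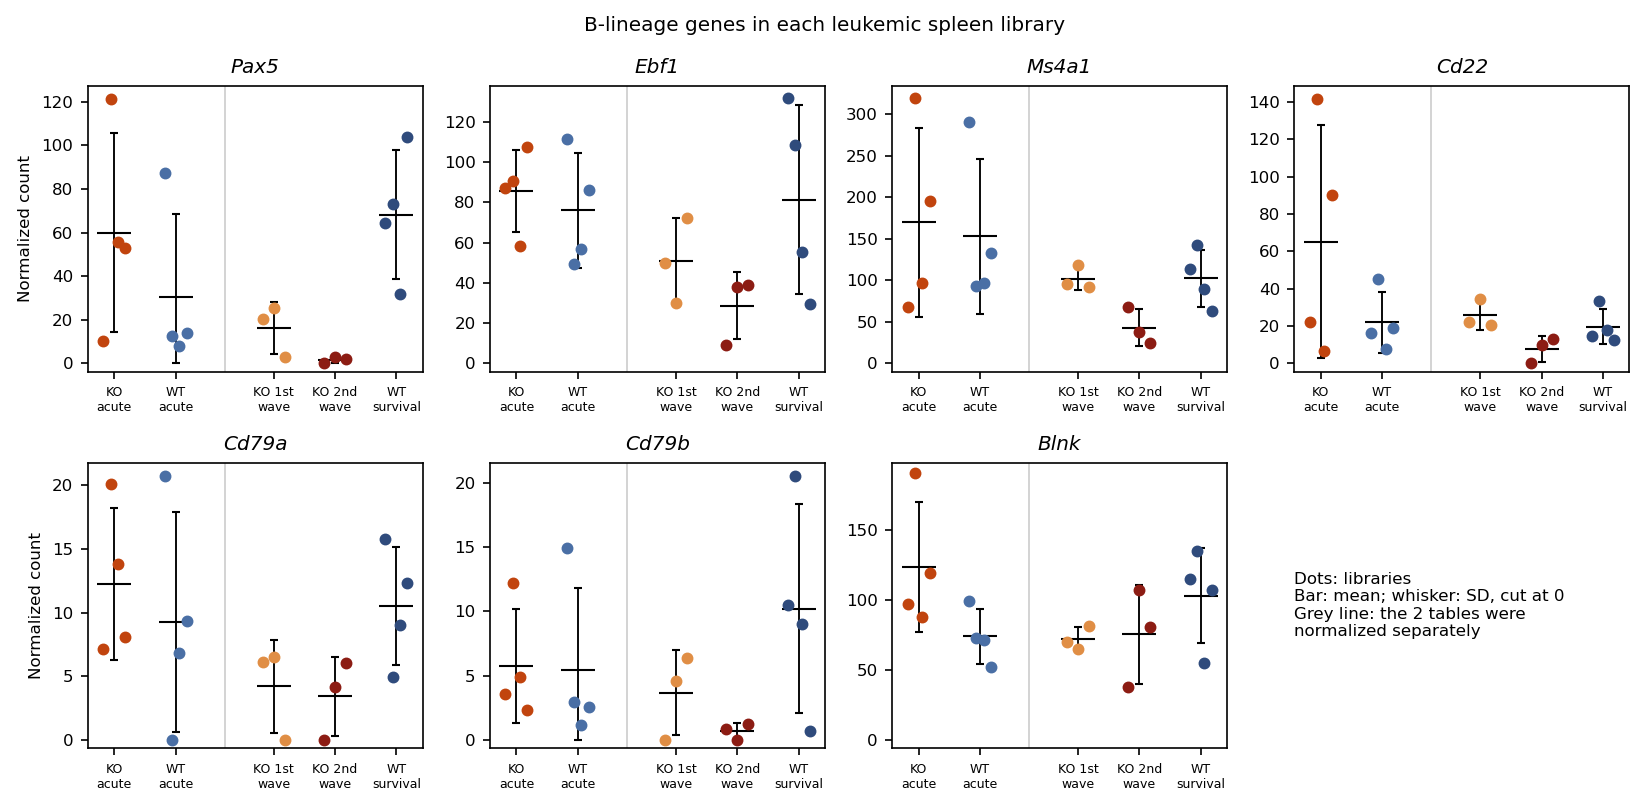
DESeq-normalized counts (vertical axes) of the 7 B-lineage genes in each library (dots), by group, with the group mean (bar) and SD (whisker, ending at 0 where it would go below). Pax5 lay between 0 and 3.18 in the 3 second-wave libraries and between 31.8 and 104 in the 4 WT survival libraries. The grey line parts the tables, which were normalized separately, so levels compare only within a side.

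The transcription factors come first. Pax5 had 0, 3.18 and 1.84 normalized counts in the 3 second-wave libraries and 20.5, 25.3 and 2.91 in the 3 first-wave libraries, against 64.4, 73.2, 31.8 and 104 in the 4 WT survival libraries. Both waves lay wholly below WT, and first-wave replicate 3 lay within the range of the second wave. The second wave averaged 1.67 ± 1.60 (SD, n = 3) and WT survival 68.3 ± 29.6 (SD, n = 4). This gave a log2 fold change of -4.81 (SE 0.81, 95% confidence interval -6.55 to -3.06, limma adjusted p = 0.0239), lower in 3 of 3 libraries. Groups did not overlap, with the lower one in the second wave, for 4.62% of all genes.

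Few reads stand behind the low Pax5 values. The estimated reads were 0, 3.0 and 1.5 in the second wave against 38.7 to 142.9 in WT survival, where 3 reads correspond to 2.52 to 3.65 normalized counts in the second-wave libraries, so the second wave was at or near the level a count of 0 allows. Pooled by depth, Pax5 reads in the second wave were 2.17% of those in WT survival, with an exact 95% interval of 0.647% to 5.34% that covers counting error only. The fitted fold change depends on the pseudocount of 1, and was -5.28 (adjusted p = 0.0348) with 0.5. The call also rested on single libraries: the adjusted p was 0.0736 without second-wave replicate 1 (-4.21), 0.0893 without WT survival replicate 1 (-4.80), 0.116 without WT survival replicate 2 (-4.74) and 0.0845 without WT survival replicate 4 (-4.57). Without WT survival replicates 1 and 2 together, the libraries that stood apart, it was -4.68 (adjusted p = 0.256).

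In the first wave Pax5 averaged 16.2 ± 11.8 (SD, n = 3), 23.8% of WT survival, with a log2 fold change of -2.29 (SE 0.81, unadjusted p = 0.0136, limma adjusted p = 0.617) that did not pass. Its groups did not overlap, which held for 3.6% of genes in the lower direction. Second wave against first wave gave -2.51 (SE 0.87, adjusted p = 0.605), with overlap, in a comparison where 0 of the 5 genes and 0.119% of all genes passed and 3 of the 5 and 6.34% of all genes had an unadjusted p under 0.05. For the mean of both waves against WT survival it was -3.55 (SE 0.69, adjusted p = 0.218), where 0 of the 5 genes and 0.021% of all genes passed. Here too 1 of the 5, Pax5, had an unadjusted p under 0.05, against 12.9% of all genes. All 6 KO survival libraries were below all 4 WT libraries in Pax5, which held in that direction for 0.875% of genes. Without WT survival replicate 3 Pax5 passed in this last comparison (-3.87, adjusted p = 0.0441).

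In the acute spleens Pax5 had 10.4, 121, 55.5 and 53.0 normalized counts in KO acute replicates 1 to 4, against 87.2, 12.6, 8.20 and 13.8 in WT acute replicates 1 to 4. WT replicates 2 to 4 lay around KO replicate 1 and below the other KO libraries, while WT replicate 1 was above all KO libraries but replicate 2. KO acute averaged 60.0 ± 45.7 and WT acute 30.4 ± 37.9 (SD, n = 4 each), and the log2 fold change of 1.18 (SE 0.76, 95% interval -0.46 to 2.81, adjusted p = 0.339) did not pass. The second wave was not tested against the acute libraries, which were normalized separately.

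Ebf1, the factor that acts with and upstream of Pax5, had 9.40, 37.8 and 38.7 normalized counts in the second wave and 50.02, 29.9 and 72.4 in the first wave, against 132, 109, 55.4 and 29.5 in WT survival. The 2 highest values were those of WT survival replicates 1 and 2, and WT survival replicate 4 lay within the second-wave range and just below the first wave. The log2 fold change was -1.49 (SE 0.61, adjusted p = 0.327) in the second wave and -0.54 (SE 0.61, adjusted p = 0.805) in the first, and without WT survival replicates 1 and 2 the second-wave value was -0.72 and the first-wave value turned to 0.23. Without second-wave replicate 1 the second-wave value was -0.85. In the acute table Ebf1 had 87.0, 90.4, 58.1 and 107 in KO libraries against 112, 49.6, 56.7 and 86.0 in WT libraries, which overlapped widely. The log2 fold change there was 0.21 (SE 0.32, 95% interval -0.47 to 0.90, adjusted p = 0.709).

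**Figure D2:**
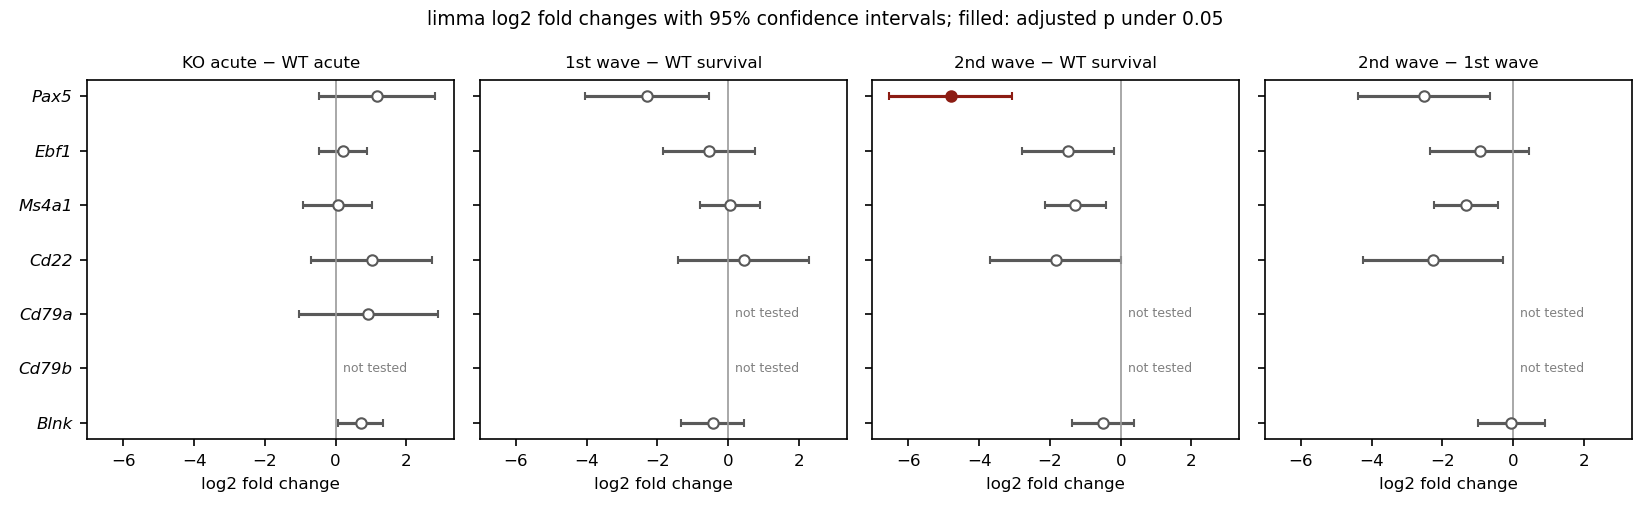
Log2 fold changes from limma (horizontal axes) for the B-lineage genes (rows) in 4 comparisons, with 95% confidence intervals (bars). The filled point, Pax5 in second wave against WT survival at -4.81, is the single one with an adjusted p under 0.05; Cd79a and Cd79b were not tested where their mean was under 10.

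Of the surface genes, Ms4a1 was the more abundant. It had 67.5, 37.8 and 24.3 normalized counts in the second wave and 95.9, 118 and 92.6 in the first wave, against 114, 143, 90.1 and 62.9 in WT survival. The 3 first-wave libraries sat inside the WT range, while the second wave was below the whole first wave and reached into the WT range with replicate 1. The second wave averaged 43.2 ± 22.1 (SD, n = 3), 42.1% of the 103 ± 34.3 (SD, n = 4) of WT survival, with a log2 fold change of -1.29 (SE 0.40, unadjusted p = 0.00612, adjusted p = 0.216). The first wave averaged 102 ± 14.0 (SD, n = 3), with a log2 fold change of 0.05 (SE 0.40, 95% interval -0.81 to 0.91, adjusted p = 0.979). Between the waves the log2 fold change was -1.34 (SE 0.43, adjusted p = 0.508). That difference did not pass, although second wave and first wave did not overlap, as for 7.29% of genes in the lower direction.

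In the acute spleens Ms4a1 had 67.5, 319, 97.0 and 196 in KO libraries against 291, 92.9, 96.8 and 133 in WT libraries. The highest value of each group came from 1 library, KO acute replicate 2 and WT acute replicate 1. The log2 fold change was 0.06 (SE 0.45, adjusted p = 0.951) and lay between -0.33 and 0.42 with 1 library left out.

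Cd22, the inhibitory receptor, had 0, 10.02 and 13.4 normalized counts in the second wave and 21.95, 34.5 and 20.8 in the first wave, against 14.5, 33.4, 17.8 and 12.8 in WT survival. The second wave lay wholly below the first wave, as for 7.29% of all genes, while its highest library was above the lowest WT library. The log2 fold changes were -2.27 (SE 0.92, adjusted p = 0.696) for second wave against first wave, -1.83 (SE 0.86, adjusted p = 0.390) for second wave against WT survival and 0.44 (SE 0.86, adjusted p = 0.899) for first wave against WT survival. The 0 in second-wave replicate 1 allows up to 2.52 normalized counts at its depth, and without that library Cd22 was at -1.05 against the first wave and -0.62 against WT survival. In acute libraries Cd22 had 22.1, 141, 6.90 and 90.1 in KO against 16.2, 45.5, 7.90 and 18.8 in WT. KO replicates 2 and 4 were above all WT libraries and KO replicate 3 was below them, and the log2 fold change of 1.02 (SE 0.80, adjusted p = 0.436) did not pass and was 0.40 without KO acute replicate 2.

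The receptor chains had the lowest mean normalized counts of the 7 genes in all groups but the second wave, where Pax5 (1.67) was below Cd79a (3.42). Cd79a had 0, 4.19 and 6.07 in the second wave and 6.13, 6.48 and 0 in the first wave, against 15.8, 4.93, 9.03 and 12.3 in WT survival. Cd79b had 0.841, 0 and 1.22 in the second wave and 0, 4.62 and 6.40 in the first wave, against 10.5, 20.5, 9.03 and 0.727 in WT survival. For both genes the WT range was the higher one and overlapped the KO ranges. Second-wave Cd79b values came from an estimated 2.0 reads in 3 libraries, against 45.0 reads in the 4 WT libraries, which pooled by depth is 6.85% (exact 95% interval for counting error only 0.806% to 26.2%). Fitted without the filter on low values, Cd79b had -2.34 (SE 0.99, adjusted p = 0.377) and Cd79a -1.69 (SE 0.94, adjusted p = 0.513) in the second wave, and -1.22 (SE 0.99, adjusted p = 0.783) and -1.51 (SE 0.94, adjusted p = 0.718) in the first.

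In acute libraries Cd79a had 7.15, 20.1, 13.8 and 8.09 in KO against 20.7, 0, 6.84 and 9.37 in WT, and Cd79b had 3.57, 12.2, 4.88 and 2.31 in KO against 15.0, 2.99, 1.14 and 2.55 in WT. KO acute replicate 2 and WT acute replicate 1 were the highest of their groups for both chains. The log2 fold change of Cd79a was 0.93 (SE 0.91, adjusted p = 0.544), which came to 0.03 without WT acute replicate 2, the library at 0, and that of Cd79b, in the fit without the filter, was 0.32 (SE 0.80, adjusted p = 0.858).

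Blnk, the adaptor, had 97.2, 190, 87.9 and 119 normalized counts in KO acute libraries against 99.1, 72.7, 71.5 and 52.0 in WT acute libraries. WT replicates 2 to 4 were below all 4 KO libraries, and WT replicate 1 was above 2 of them. KO acute averaged 124 ± 46.3 and WT acute 73.9 ± 19.3 (SD, n = 4 each), a log2 fold change of 0.71 (SE 0.30, unadjusted p = 0.0344, adjusted p = 0.142) that did not pass, where 28.1% of all genes had an unadjusted p under 0.05. In the survival table Blnk had 37.8, 107 and 80.8 in the second wave and 70.1, 65.0 and 81.5 in the first wave, against 115, 134, 55.2 and 107 in WT survival. All 3 groups overlapped, with log2 fold changes of -0.50 (SE 0.41, adjusted p = 0.627) in the second wave and -0.44 (SE 0.41, adjusted p = 0.763) in the first. Without second-wave replicate 1 the second-wave value was -0.07.

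Across groups of the survival table, the means of Pax5, Ebf1, Cd79a and Cd79b were ordered second wave, first wave, WT survival from low to high. Those of Cd22 and Blnk were not. Neighbouring groups in that order overlapped within their SD for Ebf1, Cd79a and Cd79b. For Ms4a1 the first wave and WT survival were level within their spread, with the second wave below. For Blnk no neighbours in the order differed beyond their spread, and for Pax5 both waves lay beyond the spread of WT survival. Per kilobase of the longest coding transcript, Blnk and Ms4a1 had the highest levels of the 7 genes in all 5 groups. In WT survival the mean levels were 49.1 normalized counts per kilobase for Blnk and 33.4 for Ms4a1, against 13.6 for Ebf1, 8.53 for Pax5, 7.22 for Cd79a, 7.13 for Cd79b and 4.94 for Cd22. In the second wave Blnk stood at 35.9 per kilobase and Pax5 at 0.209, against 49.1 and 8.53 in WT survival.

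**Figure D3:**
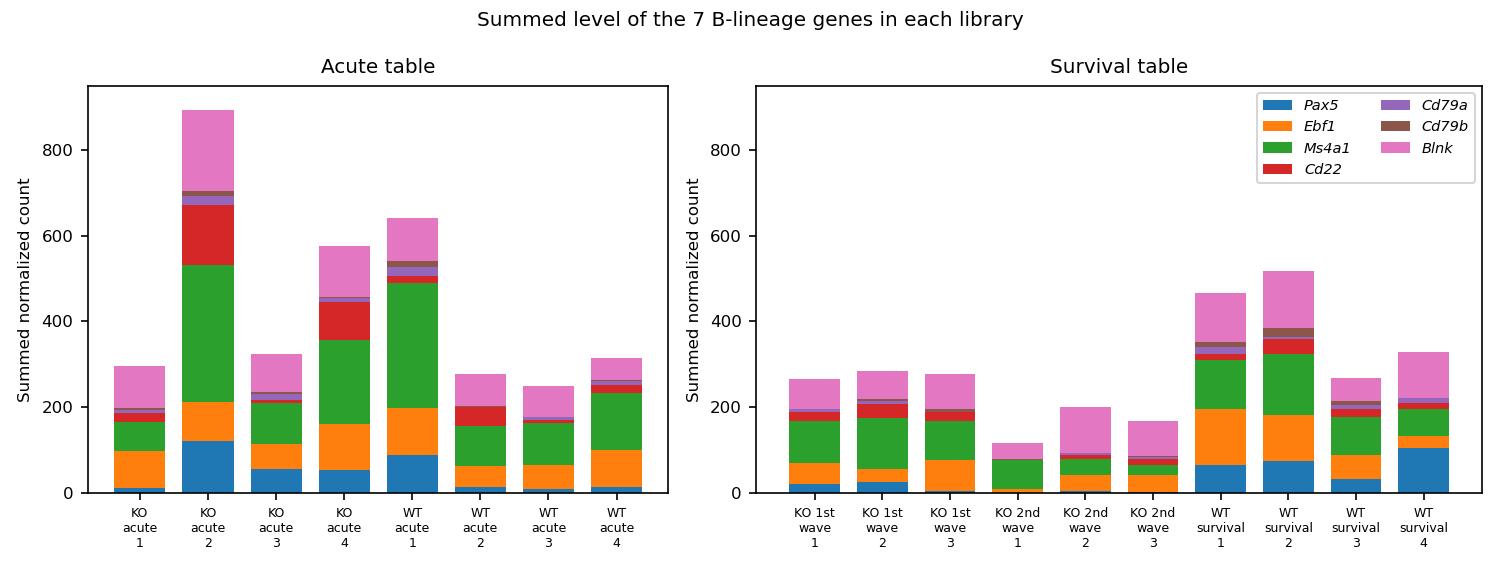
Summed DESeq-normalized counts (vertical axes) of the 7 B-lineage genes in each library, coloured by gene, for the acute table (left) and the survival table (right). The second-wave libraries have sums of 116 to 200, below every other survival library, and KO acute replicate 2 has the highest sum, 895.

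Summed over the 7 genes, second-wave libraries had 116, 200 and 166 normalized counts and first-wave libraries 265, 284 and 277, against 466, 518.5, 268 and 329 in WT survival. The second wave was below both other groups, and the first wave overlapped WT survival. Blnk made up 53.6% and 48.6% of the sum in second-wave replicates 2 and 3, against 20.6% to 32.5% in the WT survival libraries. Second-wave replicate 1 differed from the other second-wave libraries, with Ms4a1 at 58.4% of its sum and Pax5, Cd22 and Cd79a all at 0. In the acute table the sums were 295, 895, 324 and 576 in KO libraries against 641, 276, 249 and 316 in WT libraries. KO acute replicate 2 was the highest of the 8 for 4 of the 7 genes and WT acute replicate 1 for the other 3. Without both of them, an alternative chosen after the values were seen, 0 of the members passed with limma and the log2 fold change was 1.41 (adjusted p = 0.224) for Pax5, 0.34 (adjusted p = 0.843) for Cd22 and 0.63 (adjusted p = 0.208) for Blnk.

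Markers of other cell types went with the B-lineage values in some libraries and not in others. Neutrophil markers, 16 genes, made up 0.0257% to 0.0733% of counts in KO acute libraries and 0.0131% to 0.0258% in WT acute libraries, and all 15 tested had a positive log2 fold change, 2 of them past the threshold. KO acute replicate 2, the highest in B-lineage genes, was also the highest in neutrophil markers and in macrophage and monocyte markers (0.0379%, 14 of 15 in the table), and the lowest in T-lineage markers (0.753%). Stroma and endothelium markers (11 of 14 in the table) made up 0.0204% to 0.0224% in KO acute libraries and 0.0135% to 0.0158% in WT acute libraries. Erythroid markers (15 of 16 in the table) made up 0.0894% to 0.259% in KO acute and 0.162% to 0.270% in WT acute libraries, with all 15 negative and 2 past the threshold. No gene of these lists was at 0 throughout either acute group. In the survival table T-lineage markers made up 0.907% to 0.977% in the second wave, against 0.765% to 1.06% in WT survival, with the 2 lowest values in WT survival replicates 1 and 2. The same 2 libraries were the highest in neutrophil markers, 0.0195% and 0.0120%, against 0.00369% to 0.00604% in all other survival libraries, and 11 of 12 tested neutrophil markers were negative in the second wave with 0 past the threshold. NK cell markers, 9 genes, made up 0.00482% to 0.00701% in the second wave, against 0.00839% to 0.0108% in WT survival, with no overlap and 0 of the 5 tested past the threshold. Second-wave replicate 1, the lowest in B-lineage genes, was the highest survival library in erythroid markers (0.541%, against 0.102% to 0.388% in the others), macrophage and monocyte markers (0.0296%, against 0.00988% to 0.0208%) and stroma and endothelium markers (0.0262%, against 0.0143% to 0.0215%). Their part in the B-lineage values was not tested.

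Beyond the 7 genes, 8 lists of B-lineage genes were read from the same fits, with 86 different genes tested. The lists are not confined to B cells, and hold genes that T-cell precursors share, such as Rag1, Rag2 and Dntt. Their most abundant genes in the acute table were Rag1, Ets1 and Lef1, with means of 19804, 10856 and 10289. Which cells gave the reads of the listed genes was not tested, so the counts below are not counts of changes in B cells. In acute spleens 13 of the 86 were lower and 3 higher past the threshold, against 8.07% lower and 4.58% higher among all genes. That balance depended on the scaling: with equal library totals, which raised the median of all genes to 0.16 against 0.03 as deposited, 7 of 87 listed genes were lower and 8 higher, and of all genes 718 were lower and 1094 higher, against 1144 and 650 as deposited. With quantile normalization 8 of 86 were lower and 3 higher. Counted by direction alone, as deposited, 54 of the 86 were positive with a median of 0.21, against 52.4% positive and a median of 0.03 among all genes. Of the 18 tested genes of B-cell receptor signalling 2 were higher and 2 lower, with a median of 0.58. Vav2, an exchange factor downstream of the receptor, rose to 406 ± 47.9 in KO acute against 213 ± 55.3 in WT acute (SD, n = 4 each, as for the acute means that follow; log2 fold change 0.96, SE 0.21, adjusted p = 0.00921), and did not pass without KO acute replicates 1 and 2 (adjusted p = 0.0616). Cd81, a tetraspanin of the cell surface, fell to 711 ± 184 in KO acute against 1249 ± 204 in WT acute (-0.83, SE 0.18, adjusted p = 0.00853), a call lost without those 2 KO libraries (-0.55, adjusted p = 0.0713) and without an eBayes trend (adjusted p = 0.0622). Bcl10, which carries the signal to NF-κB, fell as well (-0.83, SE 0.19, adjusted p = 0.0128), but not past the threshold without KO acute replicates 1 and 2 (-0.59, adjusted p = 0.0924) or without KO acute replicate 2 and WT acute replicate 1 (-0.68, adjusted p = 0.0516). Among 8 tested inhibitory receptors and phosphatases 1 passed: Ptpn6, the phosphatase recruited by CD22, fell to 204 ± 108 in KO acute against 522 ± 163 in WT acute (-1.46, SE 0.35, adjusted p = 0.0150). The Ptpn6 call was lost under the same pairs of left-out libraries (adjusted p of 0.0550 and 0.0653 in that order) and without an eBayes trend (adjusted p = 0.0834).

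Of the 8 lists, the precursor list had the most genes past the threshold in the acute table, 6 lower and 0 higher of 10 tested, with a median of -0.44, but 2 lower under either other scaling. T-lineage markers made up 0.753% to 1.01% of counts in KO acute libraries and 0.996% to 1.08% in WT acute libraries, with 14 of 17 negative, 3 lower and 1 higher past the threshold, and their part in the precursor values was not tested. Il7r, the interleukin receptor that T-cell and B-cell precursors share, fell to 737 ± 230 in KO acute against 1544 ± 156 in WT acute (-1.11, SE 0.19, adjusted p = 0.00308). Dntt, terminal transferase, fell to 3279 ± 462 in KO acute against 4544 ± 434 in WT acute (-0.48, SE 0.12, adjusted p = 0.0166), a call lost without WT acute replicate 2 (adjusted p = 0.0511) and under both other scalings. Rag2 fell to 956 ± 224 in KO acute against 1609 ± 322 in WT acute (-0.76, SE 0.19, adjusted p = 0.020), with adjusted p-values of 0.0525, 0.0550 and 0.0720 without WT acute replicate 2, 3 or 4. Of 13 tested surface and survival receptors Cd24a alone passed, lower in KO (-0.72, SE 0.14, adjusted p = 0.00681, but 0.0616 without an eBayes trend). Of 16 transcription factors Irf4 passed, also lower (-0.63, SE 0.15, adjusted p = 0.0143, but 0.0521 without WT acute replicate 2 and 0.0595 without an eBayes trend), and it is in the plasma cell list too. In that list of 8 tested genes Fkbp11, a folding enzyme of the secretory pathway, rose (1.20, SE 0.25, adjusted p = 0.00720), a call lost without KO acute replicates 1 and 2 (1.02, adjusted p = 0.0725). Xbp1, the factor that drives secretion, fell (-0.52, SE 0.15, adjusted p = 0.0350), but lost the threshold under both other scalings and without any 1 of 7 libraries, all but KO acute replicate 2 (adjusted p from 0.0507 to 0.0948). Genes of these lists such as Rag1 (15635 ± 3195 in KO acute, 23973 ± 5289 in WT acute) stood far above the 7 B-lineage genes, and Rag1 itself fell (-0.61, SE 0.17, adjusted p = 0.0282) with overlap. That call was lost under both other scalings and without WT acute replicate 3 or 4 or KO acute replicate 1 or 2 (adjusted p of 0.0830, 0.0944, 0.0533 and 0.0634 in that order).

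Immunoglobulin constant genes were tested for 7 of 12. In the acute table Igkc, the kappa constant region, fell to 197 ± 42.8 in KO against 357 ± 89.8 in WT (SD, n = 4 each; -0.84, SE 0.22, adjusted p = 0.0259), with overlap, and lost the threshold in 9 of 18 alternatives, among them scaling to equal library totals (adjusted p = 0.0547) and leaving out WT acute replicate 1, 2 or 4 or KO acute replicate 1 (adjusted p of 0.0713, 0.0770, 0.0623 and 0.0690 in that order). Ighm, the most abundant of them, averaged 700 ± 115 in KO acute and 845 ± 144 in WT acute (-0.27, SE 0.16, adjusted p = 0.286). Class II presentation genes, which B cells share with dendritic cells and macrophages, had a median of 0.63 with 8 of 9 tested positive and 0 past the threshold.

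In the second wave 1 of the 86 listed genes passed. Bach2, a repressor that works beside Pax5 in B cells and is also expressed in T cells, had 86.4, 24.8 and 66.8 normalized counts in the second wave, against 220, 627, 404 and 288 in WT survival. Its groups did not overlap, as for 4.62% of all genes in the lower direction, and the log2 fold change was -2.74 (SE 0.46, adjusted p = 0.0239). The first wave, at 526, 334 and 183, overlapped WT survival and lay wholly above the second wave, as for 7.29% of all genes. Bach2 lost the threshold in 8 of 20 alternatives, with an adjusted p of 0.0516 without first-wave replicate 2, 0.0586 without second-wave replicate 2 (-2.21), 0.0923 without WT survival replicate 2 and 0.0519 without WT survival replicate 4, and up to 0.1502 in all. In the acute table it had 207, 438, 177 and 204 in KO against 92.4, 111, 77.8 and 278 in WT (0.96, SE 0.37, adjusted p = 0.108), and passed without WT acute replicate 4 (1.36, adjusted p = 0.0243).

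**Figure D4:**
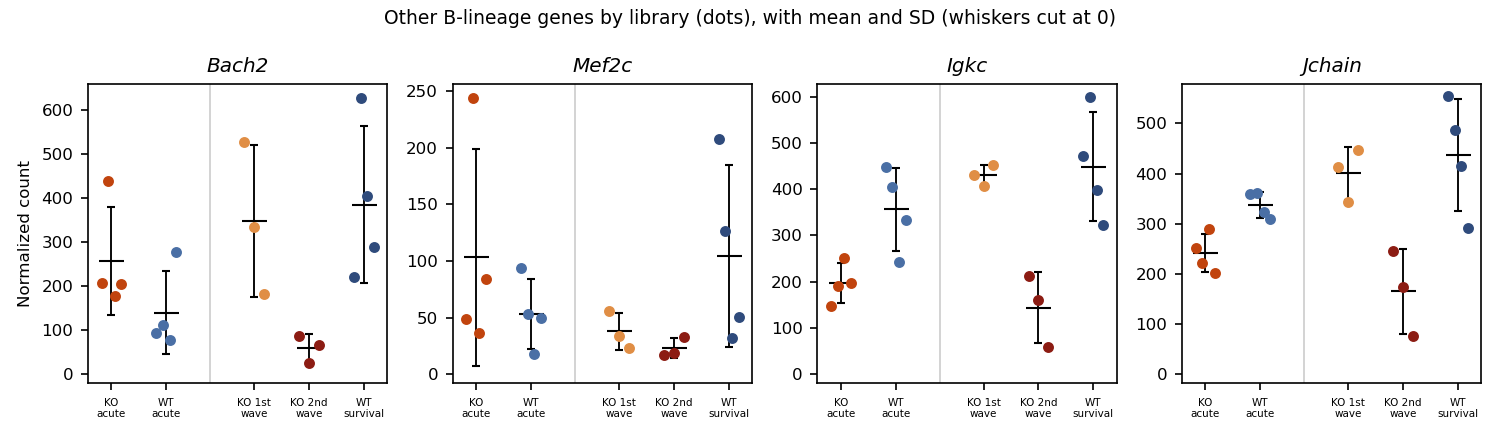
DESeq-normalized counts (vertical axes) of 4 other B-lineage genes in each library (dots), with group mean (bar) and SD (whisker, ending at 0). Second-wave values of Bach2 (24.8 to 86.4) and Igkc (59.6 to 212) lie below the WT survival range, and the grey line parts the separately normalized tables.

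Of the other genes plotted, Mef2c was chosen by how closely its values followed the 7 genes in these same libraries, and Jchain once its values were known. Of Igkc, Mef2c and Jchain, none but Igkc in the acute table passed in the acute or the second-wave comparison. Igkc had 212, 161 and 59.6 in the second wave, against 472, 599, 399 and 323 in WT survival (-1.78, SE 0.36, adjusted p = 0.0635), with no overlap, and it passed without second-wave replicate 1 (adjusted p = 0.0347), without WT survival replicate 3 (adjusted p = 0.0481) and with no filter on low values (adjusted p = 0.0473). Jchain, which joins secreted immunoglobulin units, had 246, 174 and 76.1 in the second wave, against 554, 487, 416 and 291 in WT survival (-1.51, SE 0.35, adjusted p = 0.108), also with no overlap. The second wave lay wholly below WT survival for 4.62% of all genes. Over the immunoglobulin constant list the median in the second wave was -0.88 with 6 of 7 negative, over class II genes -0.69 with 8 of 9 negative, and over receptor signalling -0.15 with 12 of 18 negative. Inhibitory receptors and phosphatases had 7 of 8 negative (median -0.43) and surface and survival receptors 8 of 14 (-0.08). The precursor list went the other way, with 8 of 9 positive and a median of 0.395. Transcription factors had 9 of 16 positive (0.14), and plasma cell genes 4 of 8 (-0.008). Of all 86 listed genes 52 were negative, with a median of -0.21, against 50.9% negative among all genes.

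The likeness of other genes to the mean pattern of the 7 was measured as the Pearson correlation of log2 values over the 8 acute and the 10 survival libraries, ranked by the lower of the pair over 10028 genes with a mean of at least 50 in both tables. It is a description, since libraries of a group share their group level and some stand apart. Emilin1, which encodes an extracellular matrix glycoprotein, came first with 0.83 in the acute and 0.94 in the survival table, followed by Mef2c, a transcription factor used in B-cell development (0.90 and 0.81), Ms4a12, of the gene family of Ms4a1 (0.83 and 0.80), Mbd1 (0.81 and 0.79), C2cd5, Drc3, Pex5 and Iqcb1 (0.83 and 0.73). Mef2c averaged 22.8 in the second wave and 37.7 in the first wave against 104 in WT survival, and 103 in KO acute against 53.4 in WT acute. As its rank came from these same libraries, group means that follow the 7 genes come with its choice. Its limma tests did not pass in the second wave (-1.85, SE 0.60, adjusted p = 0.231) or in acute spleens (0.75, SE 0.57, adjusted p = 0.424). Of the 55 ranked genes of the 8 B-lineage lists, 16 (29.1%) were positively correlated in both tables, 18 negatively in both and 21 with opposite signs, against 24.9% positive in both among all ranked genes. Named after their values were seen, the next of them after Mef2c were H2-Ab1 at rank 18, Bank1 at rank 102 and Pirb at rank 113, while Tcf3 (-0.24 and -0.71) stood at rank 8922 and Tnfrsf13b (-0.76 and 0.64) at rank 9325. Of the plotted genes, Bach2 (0.51 and 0.69) stood at rank 268, Igkc (-0.12 and 0.62) at rank 3315 and Jchain (-0.50 and 0.59) at rank 6630. Among the 7 genes themselves, the correlation of each with the mean of the other 6 was 0.36 (Cd22) to 0.87 (Pax5) in the acute table and 0.52 (Cd79b) to 0.82 (Pax5) in the survival table.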

How the data were processed

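RNA sequencing libraries of 18 leukemic spleens were used. The authors deposited 2 tables of signal values: kallisto 0.44.0 read estimates divided by DESeq size factors, with GRCm38 as the build, per the submitters' processing notes. For tool versions past kallisto's, the annotation and any gene or strand setting, nothing was given in the sources used here. Both tables (18329 genes acute, 18953 genes survival) were normalized separately and tested separately, and 0 columns lacked a sample.

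The depth was estimated from the smallest steps between low values. Between 37.9% and 63.6% of values under 8 fell within 0.02 of a whole multiple of that step. Whole reads could not be recovered this way, and no count model was used. Reads without molecular identifiers are not independent molecules, so intervals and the limit of 3 reads at a count of 0 cover counting error only.

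On the scale log2(value + 1), genes whose mean reached 10 were tested in R 4.3.3 by limma 3.58.1, with lmFit and a trended eBayes. Benjamini-Hochberg adjustment ran over all genes tested, at a threshold of 0.05. Fold changes on this scale understate those of low genes. All 10 survival libraries entered 1 fit with a common spread. Tested on simulated data with 14150 genes in the acute design, it recovered 59.2% of genes changed 2-fold, and with 14269 genes in the second-wave design 52.6%. The changed genes were drawn above a higher mean than the filter, with a spread smoothed over genes. These shares thus may not hold for low or widely scattered genes such as Cd22. Tables and plots were made with Python 3.11.15.

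The members and lists were chosen with earlier results of these data known. In each B-lineage list, at most the 3 most abundant genes and the 3 of smallest adjusted p that passed were open to naming, and the 8 genes nearest in pattern were named by rank. Jchain was added after its values were seen. The design text gives 5 samples per genotype, while 10 KO and 8 WT samples are listed and were used. Alternatives were the pseudocount, filter, scaling, variance model, replicate block and left-out libraries. A gene of one list is not reported here by name.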

Additional observations from a re-analysis of the deposited data

Results flagged for a closer look

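Samples far from the others were looked for in groups of 4, with Dixon's test of the gap to the nearest library at its 95% level, which chance alone passes in about 1 in 20 groups. For the 7 B-lineage genes, 2 of 21 groups stood out, both through WT acute replicate 1. Pax5 was 87.2 normalized counts there, against 8.20 to 13.8 in the other WT acute libraries. Cd79b was 15.0 there, against 1.14 to 2.99 in the others. For the other genes named, 3 of 38 groups stood out. Irf4 was 416 in KO acute replicate 4, against 505 to 506 in the other KO acute libraries. Bach2 was 438 in KO acute replicate 2, against 177 to 207 in the others, and 278 in WT acute replicate 4, against 77.8 to 111 in the others.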

How the results depend on the processing

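Of 487 recomputed member values, 469 kept their direction and their side of the threshold, 7 lost the threshold, 1 gained it and 10 reversed, none of the reversed ones past the threshold. Pax5 in the second wave kept its direction under all alternatives run. It was not called without an eBayes trend (-4.81, adjusted p = 0.0706) or with a replicate block (-4.57, adjusted p = 0.0674), which leaves WT survival replicate 4 without a partner, and was untested at a mean of at least 50. So the members called there numbered 0 under those 3 settings and without WT survival replicates 1 and 2, against 1, and 0 to 1 with a library left out. For the mean of both waves they numbered 0 to 1 with a library left out. Reversed values were those of Ms4a1 in the first wave with the replicate block (-0.16) and with a library left out (-0.16 to 0.23), of Ebf1 in the first wave without WT survival replicates 1 and 2 (0.23), of Ms4a1 in acute spleens (-0.33 to 0.42) and of Blnk between the waves (-0.37 to 0.37). Same-numbered libraries did not deviate together (correlations -0.029 to 0.095), so the numbers were not taken as pairs.

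Genes called in the acute table were 1794, with 693 without a trend, 903 without KO acute replicates 1 and 2, and 983 to 1634 with a library left out. In the first wave they were 0, with 1 under no filter, a mean of at least 50, quantile normalization, equal library totals or robust eBayes, 3 without WT survival replicates 1 and 2, and 0 to 3 with a library left out. In the second wave they were 32, with 14 without a trend, 14 without WT survival replicates 1 and 2, 13 with only those groups, and 15 to 140 with a library left out. Between the waves they were 17, with 1 without a trend, 2 with the replicate block, 34 without WT survival replicates 1 and 2, and 1 to 38 with a library left out. For both waves they were 3, with 5 without WT survival replicates 1 and 2, and 2 to 155 with a library left out. The causes were not tested. Depth limits Pax5, Cd22, Cd79a and Cd79b in survival libraries, where 3 reads are 2.18 to 3.95 normalized counts.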
